A study of Caenorhabditis elegans with 6 samples.

Results

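Epidermal antimicrobial peptide genes of Caenorhabditis elegans, from the series nlp-27 to nlp-34, were followed across 6 Affymetrix arrays of whole worms exposed to albendazole or to its solvent. The members were named as a list of 7 genes, and every probe set that the platform annotation assigns to any of them was taken. That gave 6 probe sets, 1 each for nlp-27, nlp-28, nlp-29, nlp-30, nlp-31 and nlp-33, out of 22548 probe sets tested in all. Each of these 6 lists a single gene, and none lists more. No probe set is annotated to nlp-34 in the table used, so that gene was not analysed here. The 6 genes stand among 17118 genes that have a probe set of their own.

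The 3 ABZ samples held 300 µg/ml albendazole and 1.5% DMSO by volume for 4 h, and the 3 DMSO samples held 1.5% DMSO alone for the same time. Albendazole is a benzimidazole anthelmintic that binds β-tubulin, and dimethyl sulfoxide (DMSO) is the solvent that carried it. All 6 samples are the strain CB3474 with the genotype ben-1(e1880)III, grown from synchronised larvae of stage L1 for 70 h at 20 °C in liquid culture. Loss of ben-1, a β-tubulin gene, makes worms resistant to benzimidazoles, and since every sample carries the allele, no worms without it could be compared. The labels call the samples biological replicates, and they name whole nematodes as the tissue. In RNA from whole worms, fewer cells of a type and less RNA per cell cannot be told apart.

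The nlp-29 group encodes small secreted peptides rich in glycine and tyrosine, of the YGGW class, that are made in the epidermis of the worm. They are best known as antimicrobial peptides whose genes are switched on in the epidermis when the fungus Drechmeria coniospora pierces the cuticle, when the skin is wounded, and under osmotic stress. After fungal infection the signal runs from an epidermal receptor through a G protein and a p38 MAP kinase cascade to a STAT-like transcription factor. In the RefSeq gene table of the assembly WBcel235, all 7 genes lie on chromosome V. There nlp-34, nlp-31, nlp-30, nlp-29, nlp-28 and nlp-27 follow each other in this order, with 0 other genes between the first and the last of these 6, and nlp-33 lies apart from them.

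The array of DMSO replicate 1 differed from the rest. Over all probe sets it correlated with the other 5 at 0.934 to 0.943, while those 5 correlated with each other at 0.988 or more. Its values were compressed: bright probe sets read low on it and dim ones high. Probe sets were sorted by mean signal into 5 equal bins, numbered from the dimmest. On DMSO replicate 1, bin 5 lay a median of 0.59 (log2) below the mean of the other arrays, and bin 4 lay 0.58 below. Of the members, nlp-27 lies in bin 4 and the others in bin 5, so the members' fold changes and those of the named genes of related lists are given with and without this array. Values are the deposited log2 signals, each log2 fold change is ABZ minus DMSO, and each SE, 95% interval and p comes from limma's linear model fitted to all probe sets.

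None of the 6 genes passed the test, and nlp-33 was the member whose groups did not overlap. At an adjusted p under 0.05, limma called 0 of the 6 higher and 0 lower, against 0% of all probe sets in either direction. At an unadjusted p under 0.05, 1 of the 6 was higher, nlp-33, against 1.52% of all probe sets, and 0 were lower, against 0.341%. All 3 ABZ values lay above all 3 DMSO values for 1 of the 6, again nlp-33, against 7.81% of all probe sets, and below them for 0, against 10.1%. The log2 fold changes of the 6 were all positive, from 0.17 to 0.52 with a median of 0.24. Over all probe sets the median was 0.02 and 53.3% were positive. These signs depended on scaling: quantile normalization turned those of nlp-27 and nlp-31, and cyclic loess normalization those of nlp-27, nlp-30 and nlp-31. Without DMSO replicate 1 the members' median was 0.08, the range -0.04 to 0.44, and 5 of the 6 were positive, against a median of -0.02 and 43.2% positive over all probe sets. The members' median was 0.15 without ABZ replicate 2. In the fit without DMSO replicate 1, 1 of the 6, again nlp-33, was higher at an unadjusted p under 0.05, against 2.97% of all probe sets, and 0 were lower, against 2.77%.

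**Figure D1:**
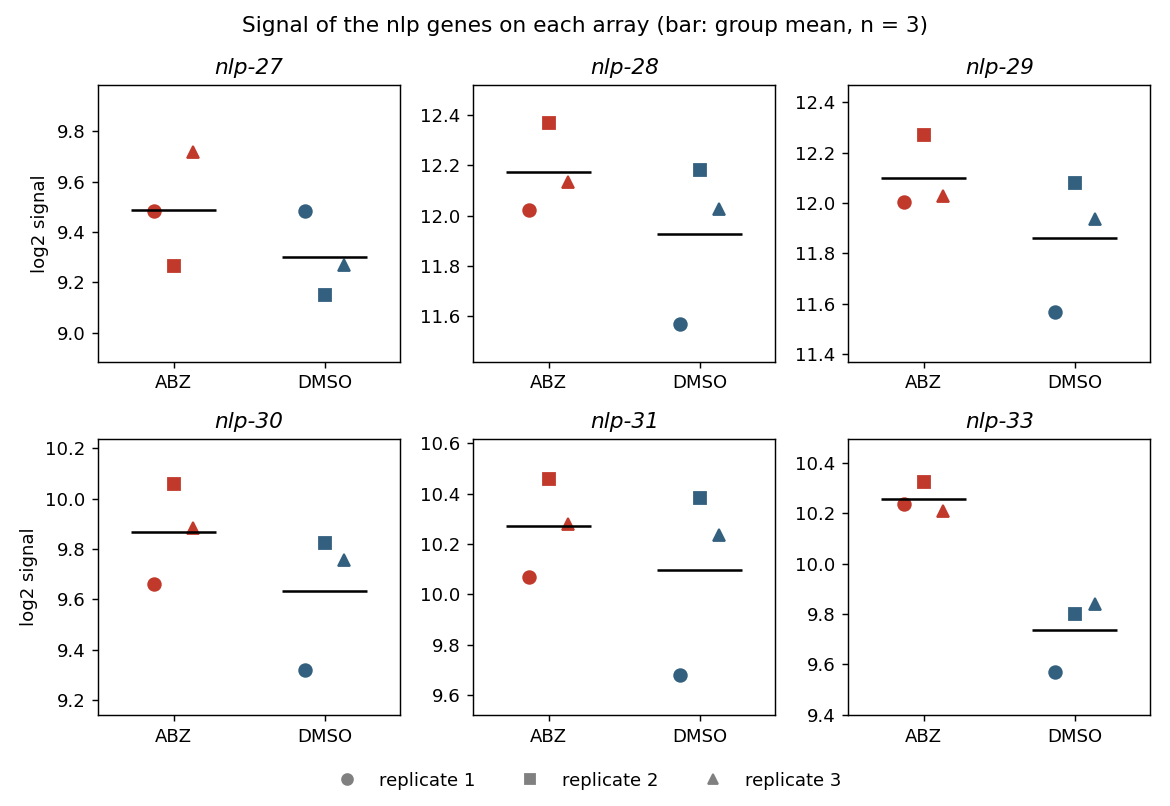
Log2 signal of each nlp gene on each array, with ABZ at left and DMSO at right of each panel; symbols mark replicate numbers, bars the group means (n = 3), and the vertical axes cover different ranges of equal height. The 3 ABZ values of nlp-33 lie between 10.21 and 10.33, all above its DMSO values of 9.57 to 9.84, while the groups of the other genes overlap.

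The gene nlp-33 (NCBI gene 179545) encodes a peptide of the same class and is induced with nlp-29 by fungal infection. Its log2 signal was 10.24, 10.33 and 10.21 in ABZ replicates 1, 2 and 3, and 9.57, 9.80 and 9.84 in DMSO replicates 1, 2 and 3. Every ABZ value lay above every DMSO value, and the 9 differences between an ABZ and a DMSO array reached from 0.37 to 0.76. It averaged 10.26 ± 0.06 in ABZ samples and 9.74 ± 0.15 in DMSO samples (n = 3 each, SD), which is 1.44-fold higher with ABZ and a log2 fold change of 0.52 (SE 0.11, 95% interval 0.24 to 0.80). The adjusted p from limma was 0.651, so the gene did not pass, although its unadjusted p of 0.00355 ranked 25th among the probe sets.

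Without DMSO replicate 1 the log2 fold change of nlp-33 was 0.44 (SE 0.07, 95% interval 0.28 to 0.60), 1.36-fold, with an adjusted p of 0.775 and rank 18. In that fit the values of the groups did not overlap either, with ABZ above DMSO as for 10.2% of all probe sets; no member lay wholly below, against 15%. Rescaling the arrays acted on this gene mainly through DMSO replicate 1. After quantile normalization its value was 10.11 on DMSO replicate 1, against 9.74 and 9.73 on DMSO replicates 2 and 3, and the ABZ values were 10.13, 10.21 and 10.09. The groups then overlapped, and the log2 fold change was 0.28. Cyclic loess normalization likewise gave 0.28 with overlapping groups.

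The neighbours nlp-28, nlp-29, nlp-30 and nlp-31 gave log2 fold changes of 0.25, 0.24, 0.23 and 0.17, and none passed. Brightness bin 5, to which these 4 belong, had a median log2 fold change of 0.20 on the same arrays, and of 0.00437 without DMSO replicate 1. Without that array the values of the 4 genes were 0.07, 0.09, 0.08 and -0.04. Without ABZ replicate 2 they were 0.15, 0.16, 0.14 and 0.08, and without DMSO replicate 2 they were 0.38, 0.35, 0.33 and 0.31.

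The gene nlp-29 (NCBI gene 178805) is the usual reporter of the epidermal response to infection and wounding. Its log2 signal was 12.01, 12.27 and 12.03 in ABZ replicates 1 to 3, and 11.57, 12.08 and 11.94 in DMSO replicates 1 to 3. The groups overlapped, since DMSO replicate 2 lay above ABZ replicates 1 and 3. It averaged 12.10 ± 0.15 in ABZ samples and 11.86 ± 0.26 in DMSO samples (n = 3 each, SD), and the 95% interval of the log2 fold change reached from -0.16 to 0.64 (adjusted p 0.651). Without DMSO replicate 1 the interval was -0.16 to 0.35.

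The gene nlp-28 (NCBI gene 181845) lies next to nlp-29 and encodes a closely related peptide. It stood at 12.02, 12.37 and 12.13 in ABZ replicates 1 to 3, and at 11.57, 12.18 and 12.03 in DMSO replicates 1 to 3. The order of the arrays was that of nlp-29 within each group, and again DMSO replicate 2 lay above ABZ replicates 1 and 3. The log2 fold change of 0.25 had an SE of 0.19 and a 95% interval of -0.21 to 0.71 (adjusted p 0.651).

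The gene nlp-30 (NCBI gene 3565444), another peptide gene of the cluster, stood at 9.66, 10.06 and 9.88 in ABZ replicates 1 to 3, and at 9.32, 9.82 and 9.76 in DMSO replicates 1 to 3. ABZ replicate 1 lay below DMSO replicates 2 and 3, so the groups overlapped. The 95% interval of its log2 fold change was -0.21 to 0.67 (adjusted p 0.651).

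The gene nlp-31 (NCBI gene 178804), whose peptide has antimicrobial activity in vitro, stood at 10.07, 10.46 and 10.28 in ABZ replicates 1 to 3, and at 9.68, 10.38 and 10.24 in DMSO replicates 1 to 3. Apart from DMSO replicate 1, the arrays of both groups were interleaved. The log2 fold change of 0.17 had the widest 95% interval of the 6 genes, -0.35 to 0.69 (adjusted p 0.687), and its sign turned to -0.04 without DMSO replicate 1.

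The gene nlp-27 (NCBI gene 178806) stands at the end of the cluster, and its array pattern was unlike that of its neighbours. It had 9.48, 9.26 and 9.72 in ABZ replicates 1 to 3, and 9.49, 9.15 and 9.27 in DMSO replicates 1 to 3. DMSO replicate 1 was its highest DMSO value, 0.11 above the mean of the other 5 arrays, whereas brightness bin 4 lay a median of 0.58 below. It averaged 9.49 ± 0.23 in ABZ samples and 9.30 ± 0.17 in DMSO samples (n = 3 each, SD), with a log2 fold change of 0.19 (SE 0.16, 95% interval -0.20 to 0.57, adjusted p 0.651). Without DMSO replicate 1 it was 0.28 (95% interval -0.06 to 0.62), and after quantile normalization, which raised DMSO replicate 1 to 10.02, it was -0.06. Without ABZ replicate 3 it was 0.07, without ABZ replicate 2 it was 0.30 and without DMSO replicate 2 it was 0.11.

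**Figure D2:**
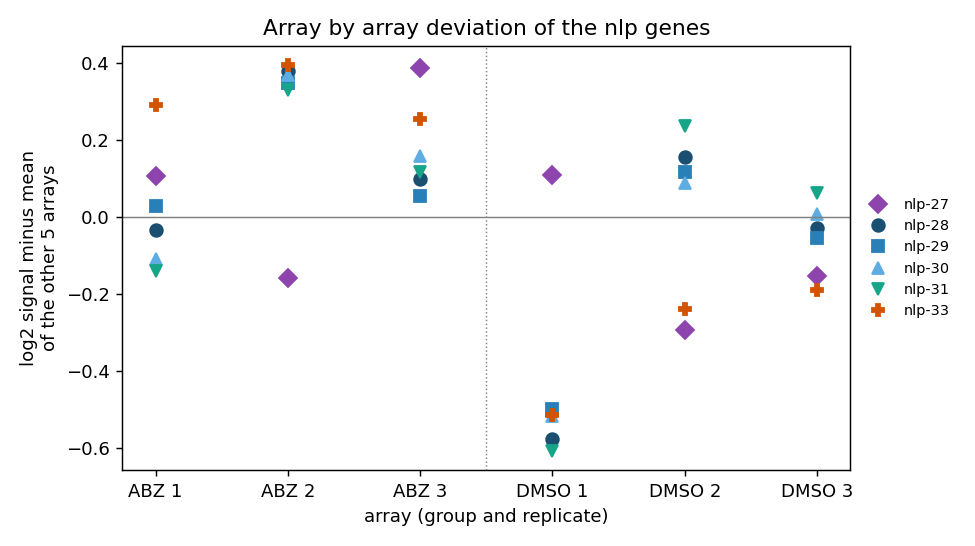
Deviation of each nlp gene on each array from its mean on the other 5 arrays (vertical axis, log2 signal), with the ABZ arrays at left and the DMSO arrays at right. nlp-28 to nlp-31 move together and lie 0.50 to 0.61 below the other arrays on DMSO replicate 1, where nlp-27 lies 0.11 above them.

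The plot of deviations by array shows that nlp-28 to nlp-31 varied as a block. In all 4 genes ABZ replicate 2 was the highest ABZ array, DMSO replicate 2 the highest DMSO array and DMSO replicate 1 the lowest of all 6. The joint lead of both replicates numbered 2 was seen for 11.6% of all probe sets and 19% of brightness bin 5. DMSO replicate 1 was the lowest array for 5 of the 6 members, nlp-27 being the exception. It was the lowest for 47.1% of all probe sets and 88.6% of brightness bin 5. The share in bin 4, which holds nlp-27, was not computed. Deviations from the group means correlated among the 4 genes with Pearson's r of 0.95 to 0.99 over 6 arrays, and of 0.84 to 0.98 over the 5 arrays without DMSO replicate 1. The same deviations of nlp-27 correlated with those of the 4 at -0.84 to -0.67, and at -0.82 to -0.45 without that array. The deviations of nlp-33 followed those of the 4 at 0.87 to 0.92, and at 0.49 to 0.67 without that array. These correlations are descriptions over few arrays, whose points share hybridisation and scaling.

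The probe sets of nlp-27 to nlp-31 carry the Affymetrix suffix _x_at, which marks sets with probes that also match other sequences, and that of nlp-33 carries _s_at, which marks sets shared by several transcripts. The 5 cluster genes have similar sequences, and no probe sequences were used here. How far these probe sets tell the neighbours apart was not tested, so the agreement among nlp-28 to nlp-31 cannot be told apart from shared hybridisation.

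**Figure D3:**
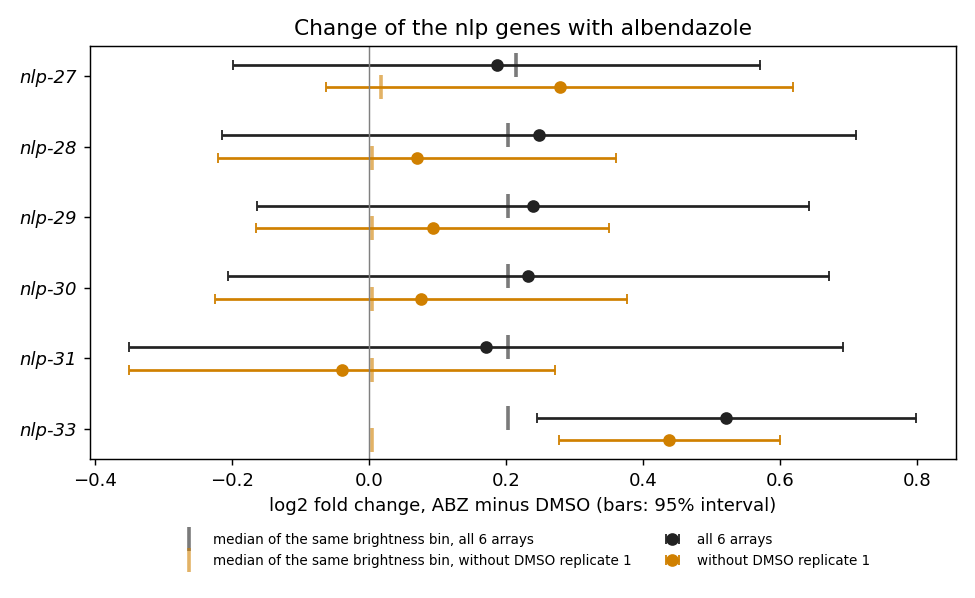
Log2 fold change (ABZ minus DMSO) of each nlp gene with its 95% interval from limma, with all 6 arrays and without DMSO replicate 1; vertical ticks give the median of all probe sets in the same brightness bin. With all arrays, nlp-28 to nlp-31 and nlp-27 lie near the ticks at 0.20 and 0.21, and nlp-33 lies at 0.52.

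The remaining YGGW peptide genes, nlp-24, nlp-25, nlp-26 and nlp-32, lie elsewhere in the genome. Of these 4, 0 passed in either direction, and their log2 fold changes were 0.11, 0.13, -0.01 and -0.13, with a median of 0.05. They are mostly dimmer than the members, so the medians are not like for like. Brightness bins 2, 1, 4 and 1 hold nlp-24, nlp-25, nlp-26 and nlp-32. Bins 1, 2 and 4 had median log2 fold changes of -0.10, -0.13 and 0.21 over all probe sets in them. The values of nlp-24 were 6.86, 6.87 and 6.87 in ABZ replicates 1 to 3, and 6.78, 6.64 and 6.84 in DMSO replicates 1 to 3. Its ABZ values lay above its DMSO values, against 7.81% of all probe sets, though DMSO replicate 3 lay close below the ABZ arrays. The other 3 overlapped with all arrays. The 4 genes had 0.13, 0.17, -0.16 and -0.11 without DMSO replicate 1, with a median of 0.01. Without that array the ABZ values of nlp-24 and nlp-25 lay above their DMSO values, against 10.2% of all probe sets. None lay below, against 15%.

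The caenacins (cnc genes) are a second family of epidermal antimicrobial peptides, of which 8 of 11 were measured. None passed at an adjusted p under 0.05, 6 of the 8 were positive, and the median was 0.21, or 0.15 without DMSO replicate 1. At an unadjusted p under 0.05, 2 were higher, cnc-2 and cnc-8, and 0 lower, against 1.52% and 0.341% of all probe sets. Without DMSO replicate 1, cnc-2 and cnc-8 were again higher and cnc-6 was lower, against 2.97% and 2.77%. The log2 fold change of cnc-6 was -0.14 with all arrays and -0.42 without that array. The probe sets of cnc-1, cnc-2 and cnc-3 carry the suffix _x_at and that of cnc-7 carries _s_at. The gene cnc-2, which is induced by fungal infection through TGF-β signalling, stood at 10.68, 10.11 and 10.57 in ABZ replicates 1 to 3, and at 10.12, 9.92 and 9.77 in DMSO replicates 1 to 3. Of the DMSO arrays only replicate 1 lay above an ABZ array, ABZ replicate 2, and the log2 fold change was 0.52 (SE 0.18, adjusted p 0.651), or 0.61 without that array. The gene cnc-8 stood at 10.75, 10.67 and 10.63 in ABZ replicates 1 to 3, and at 10.11, 10.49 and 10.29 in DMSO replicates 1 to 3. Its groups did not overlap, and the log2 fold change was 0.39 (SE 0.13, adjusted p 0.651), or 0.30 without DMSO replicate 1. The values for cnc-7 and cnc-4 were 0.43 and 0.27, or 0.62 and 0.11 without DMSO replicate 1, and neither passed. All 3 ABZ values lay above all DMSO values for 3 of the 8, cnc-3, cnc-4 and cnc-8, against 7.81% of all probe sets, and below them for 1, cnc-5, against 10.1%. Without DMSO replicate 1, cnc-2, cnc-3, cnc-4, cnc-7 and cnc-8 lay above, against 10.2%, and cnc-5 and cnc-6 below, against 15%. The genes cnc-3, cnc-5 and cnc-6 were chosen after their values were seen.

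Among the fip and fipr genes, small peptide genes induced by fungal infection, 13 of 36 were measured and 0 passed in either direction. Their median was 0.06, with 8 positive, and 0.01 when ABZ replicate 1, ABZ replicate 2 or DMSO replicate 1 was left out, while it was 0.18 without ABZ replicate 3. The values of fipr-16 and fipr-17, 0.67 and 0.53, rested on ABZ replicate 1. For fipr-16 that array read 8.11, while ABZ replicates 2 and 3 read 5.98 and 5.88, and DMSO replicates 1 to 3 read 6.30, 5.97 and 5.69. The log2 fold changes of fipr-16 and fipr-17 were 0.82 and 0.57 without DMSO replicate 1. Those of fipr-2 and fipr-26 were 0.28 and -0.22 with all arrays, and 0.0065 and -0.80 without DMSO replicate 1. None of these 4 passed. The probe set of fipr-16 carries the suffix _x_at, and those of fipr-17 and fipr-26 carry _s_at. How far these probe sets tell similar genes apart was not tested.

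The signalling genes upstream of nlp-29 were measured for 16 of 17, and 0 passed in either direction. Their median was 0.14, with 10 positive, and it was 0.06 without DMSO replicate 1 and 0.07 without ABZ replicate 2. The receptor gene dcar-1 had 0.25 and the G protein gene gpa-12 had 0.36, or -0.12 and 0.04 without DMSO replicate 1. In the other direction, nipi-4, tir-1 and sek-1 of the same list had -0.39, -0.19 and -0.19 with all arrays. Without DMSO replicate 1 these were -0.09, 0.03 and 0.09. The p38 kinase gene pmk-1 stood at 8.97, 8.87 and 8.52 in ABZ replicates 1 to 3, and at 7.59, 8.67 and 8.28 in DMSO replicates 1 to 3. Its log2 fold change was 0.60 (adjusted p 0.651), or 0.31 without DMSO replicate 1. The GATA factor gene elt-3, which is needed for epidermal expression of nlp-29, had 0.59, or 0.28 without that array. The phosphatase gene vhp-1 had 0.42 and the C/EBP factor gene cebp-1 -0.72, against 0.08 and -0.16 without DMSO replicate 1. The STAT-like factor gene sta-2 had 0.25, or 0.06 without it. The pseudokinase gene nipi-3, required for infection to induce nlp-29, had 9.73, 9.63 and 9.55 in ABZ replicates 1 to 3, and 9.37, 9.36 and 9.48 in DMSO replicates 1 to 3. Its groups did not overlap, and the log2 fold change was 0.23 (adjusted p 0.651) with all arrays and 0.21 without DMSO replicate 1. The groups of cebp-1 did not overlap either, with every ABZ value below every DMSO value. These were 1 of the 16 genes above and 1 below, against 7.81% and 10.1% of all probe sets. Of these 16 genes, dcar-1, gpa-12, nipi-4, tir-1, sek-1, sta-2 and nipi-3 were chosen after their values were seen.

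Genes of TGF-β signalling, the pathway that acts on cnc-2, were measured for 9 of 9, and 0 passed. Their median was 0.19 with all arrays and 0.06 without DMSO replicate 1. The glypican gene lon-2 had 0.60, the Schnurri-like gene sma-9 0.56 and the receptor gene daf-4 0.26. These values were 0.14, 0.13 and 0.06 without DMSO replicate 1. The gene sma-10, whose membrane protein modulates the receptors, had -0.36, or -0.23 without that array. Of the 9 genes only sma-10 had groups that did not overlap, with every ABZ value below every DMSO value, against 10.1% of all probe sets below and 7.81% above.

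Loss of certain cuticle collagens of the annular furrows switches on nlp-29, and 5 of 6 such genes were measured. None passed, 3 were positive with all arrays and 5 without DMSO replicate 1, and the medians were 0.23 and 0.27. Without ABZ replicate 1 the median was 0.067, and it was -0.0022 under quantile and -0.010 under cyclic loess normalization. The values of dpy-2, dpy-3 and dpy-7 were 0.27, 0.24 and 0.23, or 0.32, 0.30 and 0.24 without DMSO replicate 1. That of dpy-9 was -0.24, or 0.19 without DMSO replicate 1. In each of the 5 measured genes ABZ replicate 1 was the highest ABZ array. The share of all probe sets with this order was not computed.

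Of the osmotic response genes, 10 of 11 were measured and 0 passed, with a median of 0.14, or 0.02 without DMSO replicate 1. The gene gpdh-1, which makes glycerol under hypertonic stress, stood at 11.39, 11.57 and 11.41 in ABZ replicates 1 to 3, and at 11.40, 11.97 and 11.48 in DMSO replicates 1 to 3. Its log2 fold change was -0.16, or -0.27 without DMSO replicate 1, and its groups overlapped. The transporter genes hmit-1.1 and hmit-1.2 had 0.45 and 0.24, and osr-1 had 0.18. These 3 had 0.29, 0.18 and 0.10 without DMSO replicate 1. The list's median was -0.022 under quantile and -0.041 under cyclic loess normalization.

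**Figure D4:**
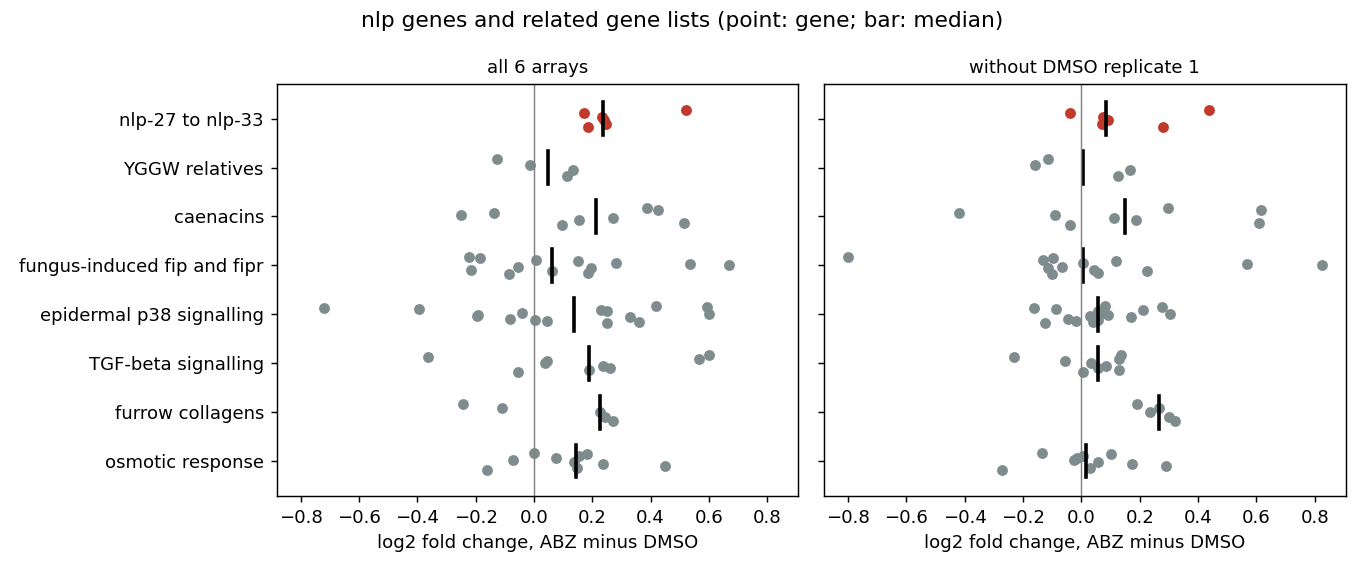
Log2 fold change (ABZ minus DMSO) of the nlp genes (top row) and of the measured genes of related lists, with all 6 arrays at left and without DMSO replicate 1 at right; each point is a gene and each bar a median. Without DMSO replicate 1 the median of the nlp genes is 0.08, that of the p38 list is 0.06 and that of the TGF-β list is 0.06.

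Markers of the epidermis, where the members are made, and of other tissues were read on the same arrays. The mean log2 signal of 10 epidermis markers was 9.84 to 9.95 on ABZ arrays and 9.74 to 9.83 on DMSO arrays. Of these 10, 0 passed, and the median log2 fold change was 0.05, or 0.06 without DMSO replicate 1. All 3 ABZ values lay above all DMSO values for 2 of the 10, nhr-25 and lin-26, against 7.81% of all probe sets, and below them for 0, against 10.1%. The log2 fold changes of nhr-25 and lin-26 were 0.56 and 0.41, or 0.42 and 0.10 without DMSO replicate 1. The cuticle collagen genes bli-1 and bli-2 had -0.40 each, or -0.02 and -0.07 without it. The adult cuticle collagen gene col-19 had a log2 signal of 11.60 to 12.17 on ABZ arrays and 11.36 to 12.37 on DMSO arrays. Its log2 fold change was -0.01, or -0.28 without DMSO replicate 1. The median was 0.03 for 6 intestine markers, 0.08 for 5 muscle markers, 0.13 for 6 neuron markers and 0.16 for 6 germline markers. Without DMSO replicate 1 these medians were 0.02, 0.07, 0.07 and -0.20. The table holds no detection calls, so which markers lie at background was not read, and the part of tissue makeup in the members' values was not tested.

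The genes whose values most resembled the mean profile of the 6 members were cdr-4, arrd-10, skr-4, cutl-10 and blos-4, with Pearson's r of 0.99 or more over 6 arrays. Among the 17112 genes compared, 149 had an r above 0.95. Without DMSO replicate 1 the nearest 5 were dat-1, xbx-3, ule-5, Y50E8A.10 and NCBI gene 190682, with r of 0.99 or more over 5 arrays, and 0 of the 5 nearest with all arrays were among them. The nearest genes thus depended on this array.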

How the data were processed

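Transcript levels were measured on 6 Affymetrix C. elegans arrays, hybridised with biotinylated cRNA made from 1 µg of total RNA each. The authors deposited log2 signal per probe set; the scale was inferred from the range of 4.887 to 14.89 and is not stated. RMA and limma are named, without version or order, per the submitters' processing notes. No detection calls or raw scans were used. The number of arrays limits the precision.

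Control probe sets (77) were left out of 22625, and genes were named from the platform's annotation (20766 probe sets with 1 gene, 887 with several, 895 with none). A gene is represented by the brightest probe set that lists it alone. The ABZ and DMSO arrays were fitted in limma (version 3.58.1; R version 4.3.3; group only, eBayes, two-sided) and Benjamini-Hochberg adjustment over 22548 probe sets at 0.05. The fit was tested on simulated data. Fold changes and 95% intervals come from this fit.

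The members and the 7 related gene lists were chosen with earlier results of these data known. Named are all members, every YGGW relative, of each other list the 4 genes with the highest absolute log2 fold change, and the 5 genes nearest to the members' mean profile. Outside this rule, dcar-1, gpa-12, nipi-4, tir-1, sek-1, sta-2, nipi-3, cnc-3, cnc-5, cnc-6, nhr-25, lin-26, bli-1, bli-2 and col-19 are named for a role, a direction or a count. Alternatives were other scalings, moderation, array weights, a filter on dim probe sets, the replicate number as a block, and each array left out. The member counts were also read at an adjusted p under 0.01.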

Additional observations from a re-analysis of the deposited data

How the results depend on the processing

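The count of members called was 0 in each direction under all 16 alternatives. These include the main fit read at an adjusted p under 0.01, whose count was fixed in advance by the 0 under 0.05. The smallest adjusted p of any member was 0.101, for nlp-33 with array weights. Few probe sets of any kind were called. Over all 22548 there were 5 with array weights and 2 without DMSO replicate 1 under intensity trend and robust settings. The other alternatives called 0. The sign of nlp-28, nlp-29 and nlp-33 was positive in all 15 alternatives tried for them, with nlp-33 between 0.28 and 0.57. Some of these could not change a sign. The replicate block, the intensity trend and robust settings and the filter on dim probe sets leave a gene's log2 fold change as it was. Under quantile normalization the log2 fold change was -0.059 for nlp-27 and -0.061 for nlp-31, and the osmotic list's median was -0.022. Under cyclic loess normalization it was -0.042 for nlp-27, -0.0070 for nlp-30 and -0.072 for nlp-31. There the median was 0.032 for the members, 0.0059 for the p38 list and -0.041 for the osmotic list. With array weights, nlp-31 had -0.0010 and the TGF-β list a median of 0.021. With single arrays left out, nlp-31 ranged from -0.039 to 0.31, the members' median from 0.08 to 0.34 and the TGF-β median from 0.058 to 0.25. The lowest of each came without DMSO replicate 1. Over the same alternatives nlp-27 ranged from 0.07 (without ABZ replicate 3) to 0.30 (without ABZ replicate 2), and the furrow collagen median from 0.067 (without ABZ replicate 1) to 0.35 (without ABZ replicate 2). An alternative added after seeing the data left out DMSO replicate 1 under intensity trend and robust settings. Those settings do not change log2 fold changes, so its -0.039 for nlp-31 and TGF-β median of 0.058 repeat the fit without that array. Leaving out both arrays numbered 1, also added after seeing the data, gave a TGF-β median of 0.035. The causes of these shifts were not tested.

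With the replicate number as a block, 0 members were called, against 0 of all 22548 probe sets. In this balanced design the block cannot change a log2 fold change, so the members' median of 0.24 was fixed in advance. Over all probe sets, deviations of same-numbered arrays correlated at 0.12, 0.26 and 0.07 for replicates 1, 2 and 3. For the members alone these were 0.82, 0.97 and -0.79. The labels state no pairing, and the numbers were not taken as pairs. Over all probe sets each array correlated best with its own number, which is a hint from the data and not from the design.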
